A study of Mus musculus with 12 samples.

Results

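The enzymes that turn squalene epoxide into lanosterol and lanosterol into cholesterol were followed in mouse liver through 9 genes: Lss, Cyp51, Tm7sf2, Msmo1, Nsdhl, Hsd17b7, Ebp, Sc5d and Dhcr7. They were picked by gene symbol, as 9 of the 26031 genes with counts in some library. Liver RNA of C57BL/6N mice had been sequenced in 4 groups of 3 samples each. HFD PCN livers came from mice on high-fat diet that were injected with pregnenolone 16α-carbonitrile (PCN), and HFD Vehicle livers from mice on the same diet injected with the vehicle, 30% DMSO. HFD livers came from mice on that diet without injection, and chow livers from mice on regular chow. All mice were 6 weeks old at the start of the 15-week diets. Daily intraperitoneal injections of PCN (50 mg/kg) or vehicle were given for 4 days, so the chow and HFD groups differ from the PCN group by the injection as well as by the drug, and chow also by the diet. The labels do not say that each library came from another animal, so p-values measure the spread between these samples, which may be partly technical.

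Cholesterol is built from acetyl-CoA through mevalonate and squalene. Lanosterol, the first sterol, is then trimmed of methyl groups, and its double bonds are moved or reduced, by enzymes of the endoplasmic reticulum. The transcription factor SREBP-2 raises the transcription of most of these genes when sterols in that membrane run low. PCN is a synthetic steroid and, in rodents, an agonist of PXR (the pregnane X receptor), which in liver and gut induces genes of drug metabolism and transport.

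Counts were not at hand for every gene in every library. Of the authors' 6 pairwise tables, only that of HFD Vehicle against HFD covered all genes, and the other 5 listed only genes with a deposited adjusted p under 0.05. A gene therefore had PCN and chow counts only where some comparison with those groups called it, so the genes that have them were bound to differ somewhere. Of the 9 genes, 8 had counts in all 12 libraries, and Ebp had counts in the 6 HFD Vehicle and HFD libraries. Levels below are read counts divided by a size factor for each library ("normalized counts"), as mean ± SD of 3 samples, and folds are ratios of these means. Replicates are named by the numbers in the sample titles: PCN 5, 11 and 27, vehicle 15, 23 and 55, HFD 4, 30 and 38, and chow 8, 17 and 19. Total counts of the complete table were 22039805, 20059676 and 19773547 in the vehicle libraries and 38161486, 24006180 and 7466378 in the HFD libraries. Size factors ran between 0.451 (HFD 38) and 2.02 (HFD 4). Of 8 hepatocyte markers, 7 were found, and the 5 with counts in all 12 libraries, albumin included, summed to at least 903037 normalized counts in every library. Adipocyte markers reached at most 3.97 normalized counts in the vehicle and HFD libraries. In RNA from whole liver, fewer cells of a type and less RNA per cell cannot be told apart.

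Of the 9 enzymes, 7 were higher in PCN livers than in vehicle livers by the adjusted p of the authors' deposited table, and none was lower. Over all 25882 genes tested there, 1.71% were called, 1.07% as higher, and among the 13775 genes with enough counts for edgeR 3.11% were called. The called enzymes were Cyp51, Tm7sf2, Msmo1, Nsdhl, Hsd17b7, Sc5d and Dhcr7, with folds between 1.93 (Sc5d) and 3.72 (Cyp51). Lss and Ebp were not listed as called in that table, and Ebp had no PCN counts. Against uninjected HFD livers 8 enzymes were higher with PCN, where 3.15% of all genes were called (1.9% as higher), or 5.67% of the genes with enough counts. The same number, 8, was higher in PCN than in chow livers, where 8.1% of all genes were called (4.43% as higher), or 14.2% of the genes with enough counts. These 3 comparisons share the PCN libraries and are therefore not independent of each other.

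**Figure D1:**
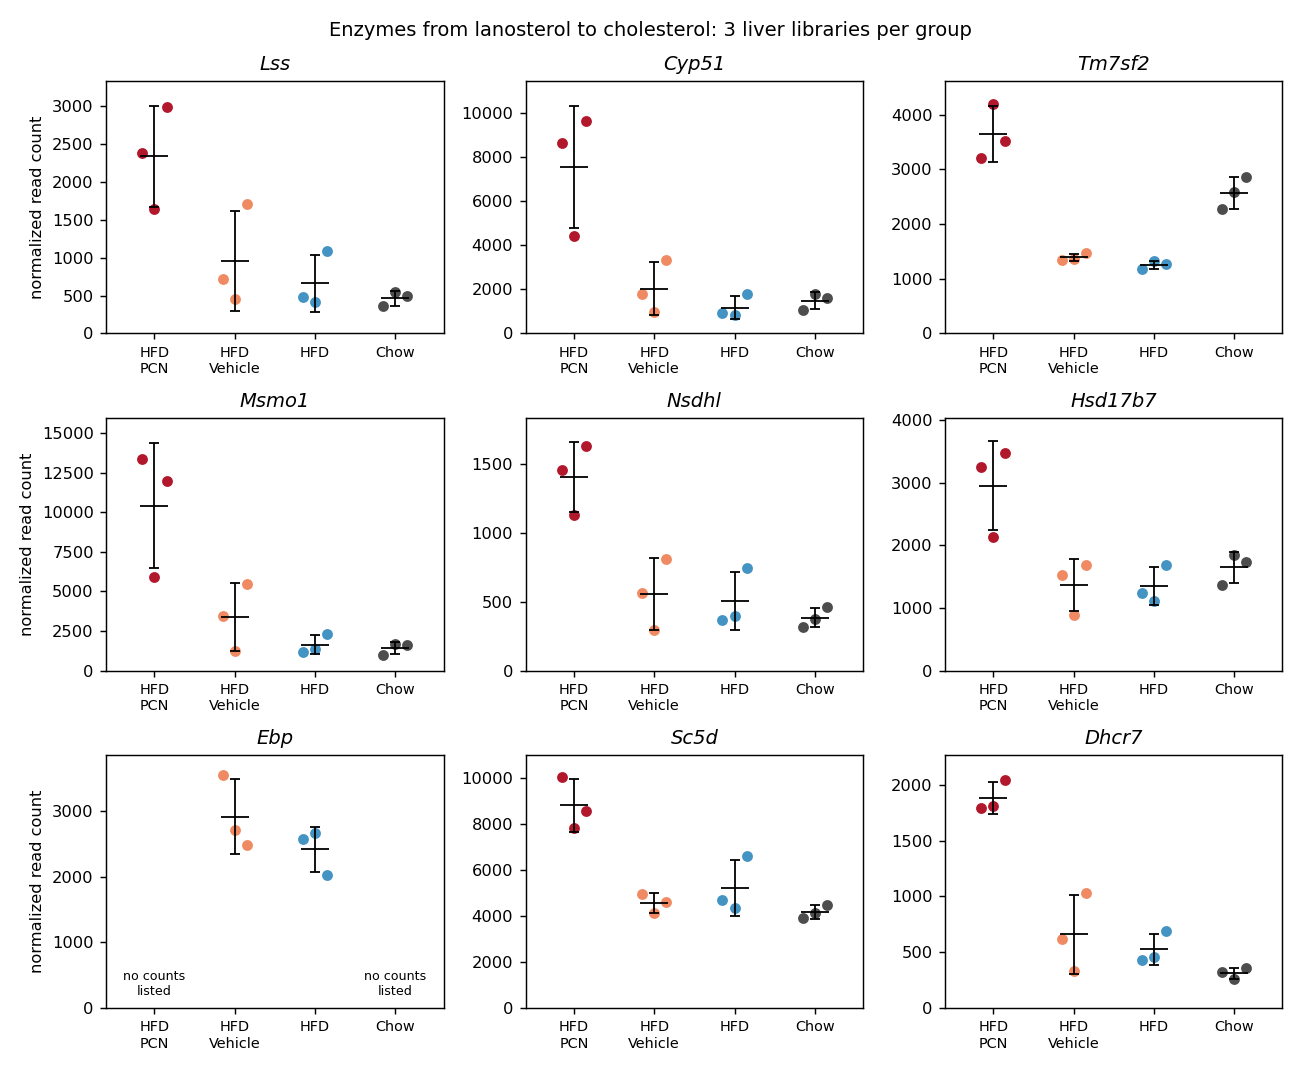
Normalized read counts (vertical axis, linear and starting at 0) of the 9 genes in the HFD PCN, HFD Vehicle, HFD and chow livers. Each point is 1 library, and the long horizontal mark and bars are the mean and SD of 3 libraries. Every PCN point lies above every HFD and chow point for the 8 genes with PCN counts, and above every vehicle point except for Lss. These genes have PCN counts only because a comparison with that group called them, so this separation follows in part from the choice.

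Lss (ENSMUSG00000033105, chr10:76531588-76557138, plus strand, GRCm38) encodes lanosterol synthase, which folds squalene epoxide into the ring system of lanosterol. An antisense gene that overlaps it had at most 2 counts per vehicle or HFD library. It had 2380.2, 1647 and 2989.7 normalized counts in PCN livers, against 718, 449 and 1705 in vehicle livers. The 2 groups overlapped, because vehicle 55 lay above PCN 11, and the 2.44-fold difference of the means was not listed as called. Leaving out 1 library gave folds between 1.93 (without vehicle 23) and 4.01 (without vehicle 55). On the log2 scale, the difference of means with all 3 PCN and all 3 vehicle livers was 1.47 ± 0.62 (SE). HFD livers had 477, 419 and 1092 and chow livers 357, 548 and 497 normalized counts. All 3 PCN livers were above all of these. Lss was 3.53-fold higher in PCN than in HFD livers (adjusted p 1.76e-05 in the authors' deposited table). Against chow the fold was 5.01 (adjusted p 2.13e-21 in the authors' deposited table).

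Cyp51 (ENSMUSG00000001467, chr5:4081145-4104746, minus strand) encodes lanosterol demethylase, a cytochrome P450 and the first enzyme to act on lanosterol. Its interval meets the end of Akap9 on the opposite strand, which had 608 to 4025 counts per vehicle or HFD library, and whether counting used strand is not given. Its level was 8630.2, 4413 and 9619 normalized counts in PCN livers and 1785, 959 and 3348 in vehicle livers. In HFD livers it was 909.7, 850.1 and 1773, and in chow livers 1077, 1805 and 1601. The lowest PCN liver stood above the highest liver of each other group. PCN livers averaged 7554 ± 2765 and vehicle livers 2031 ± 1214 normalized counts, a 3.72-fold difference (adjusted p 0.000901 in the authors' deposited table). It was 6.41-fold higher in PCN than in HFD livers, and 5.06-fold higher in PCN than in chow livers (adjusted p 6.19e-13 and 3.23e-16 in the authors' deposited tables).

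Tm7sf2 (ENSMUSG00000024799, chr19:6062821-6077197, minus strand in the tables) encodes a sterol reductase that removes the double bond left by Cyp51, a step that the lamin B receptor Lbr can also catalyse. PCN livers had 3215, 4203 and 3512 normalized counts of Tm7sf2, against 1345, 1361 and 1469.5 in vehicle livers. HFD livers had 1185, 1324 and 1263 and chow livers 2274, 2589.5 and 2856. All 4 groups were tight, with PCN livers on top, chow livers next, and the vehicle and HFD livers close to each other at the bottom. The gene was 2.62-fold higher in PCN than in vehicle livers (adjusted p 4.12e-13 in the authors' deposited table). The fold over HFD was 2.9, and over chow 1.42 (adjusted p 2.12e-19 and 0.0236 in the authors' deposited tables). In the tables' annotation this gene ends at 6077197, beyond the end at 6068373 in GENCODE M21, and overlaps Vps51 on the same strand (6067842 to 6080324). Vps51 had 4 to 34 counts per vehicle or HFD library, so how reads were split between the overlapping genes is uncertain.

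Msmo1, Nsdhl and Hsd17b7 act together to take the methyl groups off carbon 4: a methylsterol oxidase, a dehydrogenase that removes the carboxyl group, and a ketoreductase. Msmo1 (ENSMUSG00000031604, chr8:64718139-64733792, minus strand) had 13348, 5931 and 11967 normalized counts in PCN livers and 3433, 1239 and 5491 in vehicle livers. HFD livers had 1204, 1381 and 2339 and chow livers 958, 1681 and 1637 normalized counts of Msmo1. The vehicle group was wide, and its highest liver, vehicle 55, came close below PCN 11. Msmo1 was 3.07-fold higher in PCN than in vehicle livers, 6.34-fold higher than in HFD livers and 7.31-fold higher than in chow livers. The adjusted p in the authors' deposited tables was 0.0207 against vehicle, 9.37e-14 against HFD and 2.76e-22 against chow.

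Nsdhl (ENSMUSG00000031349, chrX:72918557-72958514, plus strand) was at 1458, 1130.2 and 1629 normalized counts in PCN livers, against 561, 294 and 812 in vehicle livers. HFD livers had 366, 399 and 748, and chow livers 317, 376 and 459. No liver of the other 3 groups reached the lowest PCN liver. The folds were 2.53 over vehicle, 2.79 over HFD and 3.66 over chow, with adjusted p 0.00638, 1.2e-05 and 2.24e-19 in the authors' deposited tables.

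Hsd17b7 (ENSMUSG00000026675, chr1:169949535-169969241, minus strand) had 3243, 2136 and 3465 normalized counts in PCN livers and 1521, 891 and 1679 in vehicle livers. In HFD livers the values were 1245, 1113 and 1687, and in chow livers 1371, 1845 and 1726. The lowest PCN liver was again above all others, by less than for Nsdhl. Hsd17b7 was 2.16-fold higher in PCN than in vehicle livers, 2.19-fold higher than in HFD livers and 1.79-fold higher than in chow livers (adjusted p 0.00907, 0.000125 and 0.000882 in the authors' deposited tables).

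Ebp (ENSMUSG00000031168, chrX:8185329-8193512, minus strand) encodes the emopamil-binding protein, an isomerase that shifts the double bond of the sterol ring. It had 3560.4, 2715 and 2483 normalized counts in vehicle livers, against 2569.9, 2669 and 2024 in HFD livers. The groups overlapped, and the ratio of means was 1.21. None of the 5 other tables listed it, so Ebp was not among the genes called in any PCN or chow comparison. For the same reason its PCN and chow levels were not at hand.

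Sc5d (ENSMUSG00000032018, chr9:42251595-42264256, minus strand) encodes the desaturase that makes the substrate of Dhcr7. PCN livers had 10046, 7809 and 8536 normalized counts of Sc5d, against 4959, 4112 and 4606 in vehicle livers. HFD livers had 4675, 4337 and 6608 and chow livers 3903, 4122 and 4470.2. The groups with and without PCN were separate, with HFD 38 nearest to the PCN livers. Sc5d was 1.93-fold higher in PCN than in vehicle livers, 1.69-fold higher than in HFD livers and 2.11-fold higher than in chow livers (adjusted p 1.62e-05, 0.00822 and 2.09e-11 in the authors' deposited tables).

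Dhcr7 (ENSMUSG00000058454, chr7:143823145-143848410, plus strand) encodes the reductase of the last step to cholesterol in the branch that runs through Sc5d. Its values were 1793, 1812 and 2048 normalized counts in PCN livers, against 613, 330.1 and 1033 in vehicle livers. HFD livers had 427, 456 and 686 and chow livers 317, 259 and 355. PCN livers were close to each other and above all other livers, and chow livers were lowest but for 1 vehicle liver, vehicle 23, that fell among them. Dhcr7 averaged 1885 ± 142 normalized counts with PCN and 659 ± 354 with vehicle, a 2.86-fold difference (adjusted p 0.00201 in the authors' deposited table). The fold was 3.6 over HFD and 6.07 over chow, with adjusted p 1.3e-16 and 1.07e-53 in the authors' deposited tables.

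Fewer of these calls held when the listed counts were tested again with edgeR's quasi-likelihood test and Benjamini-Hochberg adjustment. Against vehicle 1 enzyme of the 7 listed passed by edgeR, where 20 of the 442 listed genes did, or 0.0773% of all genes. Genes not listed were not tested again and could not pass, so the share of all genes does not show how rare a pass was. The enzyme was Tm7sf2 (adjusted p 0.0243 by edgeR). That call held without PCN 11 and was lost in each of the 5 fits that left out another library. Against HFD 4 of the 8 listed enzymes passed by edgeR, where 140 of the 809 listed genes did. These enzymes were Tm7sf2, Dhcr7, Msmo1 and Cyp51 (adjusted p 0.00842, 0.0119, 0.0327 and 0.0346 by edgeR). Their number was 0 without HFD 4, 1 without HFD 30, PCN 5 or PCN 27, 5 without PCN 11 and 6 without HFD 38. Against chow 6 of the 8 listed enzymes passed by edgeR, where 771 of the 2032 listed genes did. These enzymes were Dhcr7, Nsdhl, Lss, Msmo1, Cyp51 and Sc5d (adjusted p between 0.00312 and 0.0159 by edgeR). Dhcr7, Nsdhl, Lss and Msmo1 passed against chow in all 6 fits that left out 1 library. Tm7sf2 and Hsd17b7 did not pass against chow by edgeR. No called fold changed sign when 1 library was left out, but where groups do not overlap such a change is not possible. For 1 gene, exact permutation of 3 against 3 samples allows no p below 0.10.

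**Figure D2:**
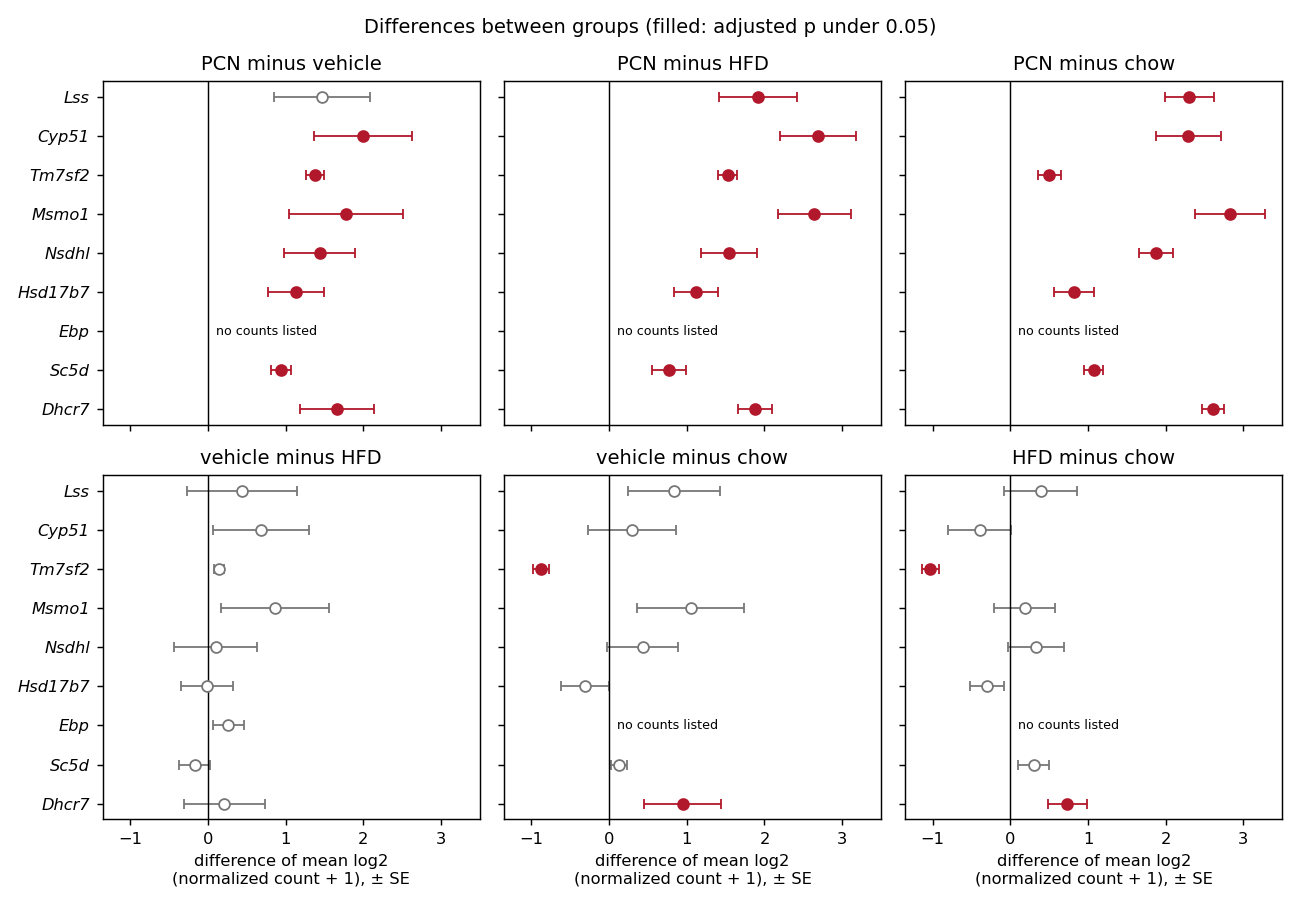
Differences between groups of the mean log2 (normalized count + 1), with standard errors over 3 and 3 libraries, for each gene (rows, in pathway order) in the 6 comparisons. Filled points have an adjusted p under 0.05, by edgeR for vehicle minus HFD and in the authors' deposited tables for the rest. The filled points of the 3 PCN comparisons all lie right of 0, and Tm7sf2 lies left of 0 in vehicle minus chow and HFD minus chow.

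Vehicle livers were compared with uninjected HFD livers over all genes, which shows these enzymes on the same diet without PCN. None of the 9 passed by edgeR at an adjusted p under 0.05, nor at an unadjusted p under 0.05, where 12.5% of the 13775 genes tested passed unadjusted and 1 gene (0.00726%) passed adjusted. The authors' deposited table likewise called none of the 9, with 0.792% of all genes called. The log2 difference by edgeR had a median of 0.27 over the 9 enzymes and 0.02 over all genes tested. This direction rested on vehicle 55: without that library the median over the 9 enzymes was -0.14, with 5 of the 9 below 0, while it lay between 0.17 and 0.55 when any other library was left out. The lowest unadjusted p was 0.0712, for Msmo1, which averaged 3388 ± 2126 normalized counts in vehicle and 1641 ± 611 in HFD livers. Cyp51 averaged 2031 ± 1214 and 1178 ± 517 in the same groups, and Hsd17b7 1364 ± 417 and 1348 ± 300.3.

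Against chow, Tm7sf2 and Dhcr7 were the enzymes called in the groups without PCN, in opposite directions. Tm7sf2 averaged 1257 ± 70.1 normalized counts in HFD and 2573 ± 292 in chow livers, 2.05-fold lower with the diet (adjusted p 8.87e-12 in the authors' deposited table). Vehicle livers, at 1392 ± 67.8, were 1.85-fold lower than chow livers (adjusted p 4.18e-07 in the authors' deposited table). No HFD or vehicle liver reached the lowest chow liver. By edgeR Tm7sf2 passed both times (adjusted p 0.0316 for HFD and 0.0457 for vehicle). For HFD 1 of the 2 listed enzymes passed, where 119 of the 1226 listed genes did (0.471% of all genes). For vehicle 1 of the 2 listed enzymes passed, where 98 of the 790 listed genes did (0.384% of all genes). Genes not listed were not tested by edgeR, so these shares of all genes do not show how rare a pass was. Tm7sf2 passed in none of the 6 fits that left out 1 library (adjusted p 0.0536 to 0.134 for HFD and 0.11 to 0.181 for vehicle). PCN livers, by contrast, stood above chow livers for this gene, by a call that did not pass by edgeR.

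Dhcr7 averaged 523 ± 142 normalized counts in HFD and 310.3 ± 48.2 in chow livers, 1.69-fold higher with the diet (adjusted p 0.0228 in the authors' deposited table). In vehicle livers it was 2.12-fold higher than in chow livers (adjusted p 0.0412 in the authors' deposited table), although vehicle 23 lay within the chow values. Neither Dhcr7 call passed by edgeR (adjusted p 0.208 for HFD and 0.541 for vehicle). In each of these 2 comparisons 1 enzyme was thus higher and 1 lower of 9, where 4.85% of all genes were called between HFD and chow (2.81% higher and 2.05% lower) and 3.1% between vehicle and chow (1.72% higher and 1.38% lower). Cyp51 and Hsd17b7 were at 1178 ± 517 and 1348 ± 300.3 normalized counts in HFD livers, against 1494 ± 375 and 1647 ± 247 in chow livers, and were listed as called in neither comparison. Msmo1, Nsdhl, Lss and Sc5d were also not listed there.

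Within a group the enzymes tended to be high or low in the same library. Vehicle 55 held the highest vehicle value for 7 of the 9 enzymes, and vehicle 23 the lowest for 7. HFD 38 was highest for 7 of 9 among HFD livers, and it was the library with the fewest counts. PCN 11, with the smallest size factor of its group, was lowest for 6 of 8 among PCN livers, and chow 8 was lowest for 7 of 8 among chow livers. Whether depth plays a part in these orders was not tested. The spread among vehicle livers differed by gene. The highest vehicle liver exceeded the lowest 4.43 times for Msmo1, 3.79 times for Lss and 3.49 times for Cyp51, but 1.21 times for Sc5d and 1.09 times for Tm7sf2. Ebp ran against the others in these libraries, being lowest in vehicle 55 and in HFD 38. Summed over the 8 enzymes with counts everywhere, PCN livers had 44114, 29081 and 43767 normalized counts, against 14935, 9636 and 20144 in vehicle livers. The sums were 10489, 10279.8 and 16196 in HFD livers and 10574, 13226 and 13601 in chow livers. The lowest PCN sum, of PCN 11, was above the highest other sum, of vehicle 55. The 8 enzymes have PCN counts only because a comparison with that group called them, so this order follows in part from the choice. Ebp, not listed as called with PCN, is left out of the sums.

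**Figure D3:**
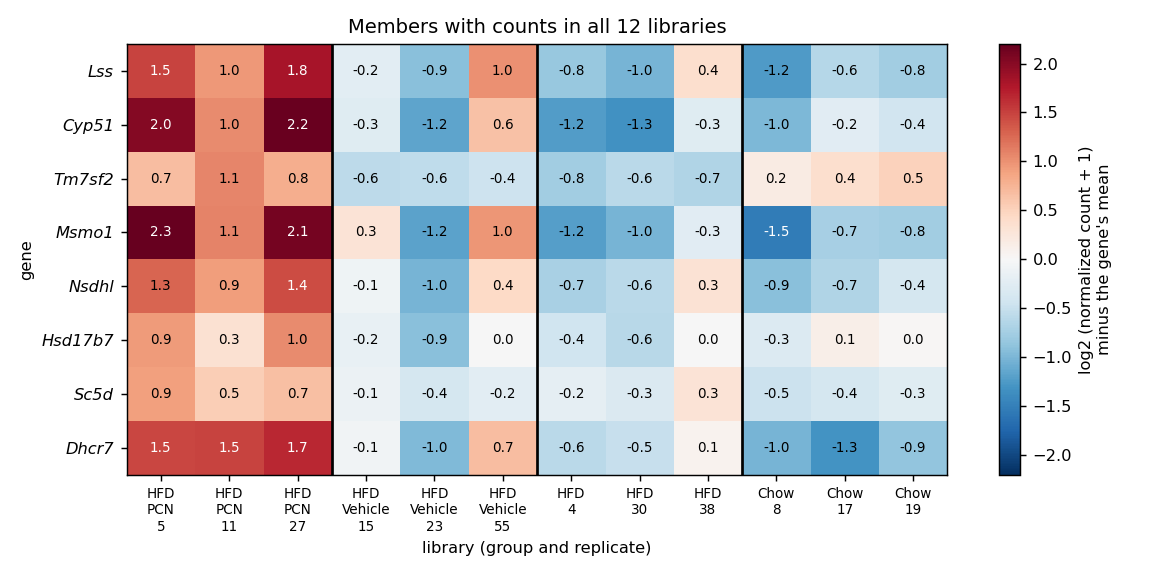
Log2 (normalized count + 1) of each gene in each of the 12 libraries, minus the gene's mean over them, for the 8 genes with counts in all libraries (columns are libraries by group and replicate, colour and printed numbers are the same quantity). The PCN columns are above 0 for all 8 genes, vehicle 55 and HFD 38 are the highest columns of their groups for most genes, and Tm7sf2 is above 0 in all 3 chow columns.

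Per kilobase of exon (GENCODE M21), Sc5d was the most abundant of the 8 enzymes in PCN livers, at 1807.9 ± 234.5 normalized counts per kb, followed by Cyp51 (1711 ± 626) and Msmo1 (1695 ± 642). These 3 did not differ beyond their spread. Tm7sf2 (827 ± 115), Hsd17b7 (578 ± 140), Nsdhl (493 ± 88.9), Dhcr7 (324 ± 24.4) and Lss (217 ± 62.3 normalized counts per kb) followed. In vehicle livers Ebp led with 1264 ± 246 normalized counts per kb, ahead of Sc5d (937 ± 87.5), Msmo1 (551 ± 346), Cyp51 (460 ± 275), Tm7sf2 (316 ± 15.4) and Hsd17b7 (267 ± 81.7). In HFD livers Sc5d (1070.0 ± 252) and Ebp (1048 ± 150) did not differ beyond their spread, and Tm7sf2, Msmo1, Cyp51 and Hsd17b7 lay between 264 and 286 normalized counts per kb. In chow livers Sc5d (856 ± 58.8) was followed by Tm7sf2 (584 ± 66.2), Cyp51 (338 ± 85) and Hsd17b7 (323 ± 48.4 normalized counts per kb). Nsdhl, Dhcr7 and Lss took the last 3 places in all 4 groups, in that order. The lengths take in every annotated exon of a gene (10787 bases for Lss and 2310 for Ebp), so these orders depend on the annotation.

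Since 7 to 8 of the enzymes were higher with PCN, the 250 bases before their start sites were read for letters known from sterol-regulated promoters (RefSeq promoter windows, GRCm38.p6, 11 windows for all 9 genes). TCACNNCA is a relaxed form of the sterol regulatory element bound by SREBP-2, and CCAAT is the box bound by NF-Y, a factor known to act beside it. Both were searched on both strands, and were chosen after the sequences had been read. CCAAT was found in 9 of the 11 windows, at least 1 for each gene, and in 33.8% of all 32851 such windows. TCACNNCA was found in 6 of the 11 windows, for 5 genes (Cyp51, Msmo1, Hsd17b7, Sc5d and Dhcr7), and in 11.4% of all windows. Both stood together in 5 of the 11 windows and in 3.8% of all windows. A match describes letters only, and no binding was measured. Windows of 4 genes with both motifs are shown, together with that of Tm7sf2, which has CCAAT alone, as Lss, Nsdhl and Ebp also do. They run 5′ to 3′ toward the start site, with motif matches in capitals (CCAAT reads ATTGG on the other strand).
Cyp51 (chr5:4104698-4104947, minus strand): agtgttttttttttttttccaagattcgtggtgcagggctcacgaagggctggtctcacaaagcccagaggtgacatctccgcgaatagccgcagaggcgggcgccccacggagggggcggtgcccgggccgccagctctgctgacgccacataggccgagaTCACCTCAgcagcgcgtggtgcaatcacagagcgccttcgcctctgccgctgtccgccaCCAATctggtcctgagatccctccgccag
Hsd17b7 (chr1:169969206-169969455, minus strand): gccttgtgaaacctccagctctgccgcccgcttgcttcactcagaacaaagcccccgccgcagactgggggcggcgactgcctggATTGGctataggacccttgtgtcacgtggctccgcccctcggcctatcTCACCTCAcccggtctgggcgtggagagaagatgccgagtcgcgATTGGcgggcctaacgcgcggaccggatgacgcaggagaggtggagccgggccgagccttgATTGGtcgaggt
Sc5d (chr9:42264301-42264550, minus strand): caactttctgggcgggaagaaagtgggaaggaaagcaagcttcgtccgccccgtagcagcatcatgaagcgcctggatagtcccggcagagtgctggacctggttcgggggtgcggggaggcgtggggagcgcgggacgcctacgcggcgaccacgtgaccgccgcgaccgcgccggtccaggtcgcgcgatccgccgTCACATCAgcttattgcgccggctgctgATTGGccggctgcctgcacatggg
Dhcr7 (chr7:143829964-143830213, plus strand): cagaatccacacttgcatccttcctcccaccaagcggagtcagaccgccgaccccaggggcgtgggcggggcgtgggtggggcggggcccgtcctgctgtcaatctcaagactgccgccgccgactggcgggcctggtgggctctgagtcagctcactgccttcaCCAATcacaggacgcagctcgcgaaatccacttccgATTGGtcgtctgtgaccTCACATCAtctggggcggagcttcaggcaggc
Tm7sf2 (chr19:6067851-6068100, minus strand): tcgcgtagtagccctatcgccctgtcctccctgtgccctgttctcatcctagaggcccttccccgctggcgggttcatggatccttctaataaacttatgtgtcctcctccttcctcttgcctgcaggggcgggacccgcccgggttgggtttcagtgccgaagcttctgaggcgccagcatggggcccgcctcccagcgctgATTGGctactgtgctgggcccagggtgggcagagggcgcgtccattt
In Cyp51 TCACCTCA begins 88 bases before the start site, in Hsd17b7 117 bases and in Sc5d, as TCACATCA, 52 bases. In Dhcr7 TCACATCA begins 32 bases before the start site. The Dhcr7 window is that of the third of its 3 RefSeq start sites.

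Genes upstream of lanosterol were also among those called. Of 10 genes that lead from acetyl-CoA to squalene epoxide, 5 were higher in PCN than in vehicle livers and none lower in the authors' deposited table. They included Acat2, Mvk, Pmvk and Fdft1. All 10 were called higher against HFD and all 10 against chow. Among all genes with enough counts, 3.11% were called against vehicle, 5.67% against HFD and 14.2% against chow. By edgeR 0 of the 5 calls against vehicle passed (adjusted p 0.143 to 0.332), 5 of the 10 against HFD and all 10 against chow. Sqle, the squalene epoxidase that makes the substrate of Lss, averaged 4184 ± 1773 normalized counts in PCN and 1113 ± 1095 in vehicle livers, and was not listed for that pair. Against HFD, at 611 ± 517, it was 6.84-fold higher with PCN. Fdft1, which makes squalene, was 2.98-fold higher in PCN than in vehicle livers, and Mvk, mevalonate kinase, 2.75-fold. In vehicle against HFD none of the 10 passed by edgeR at an adjusted or at an unadjusted p under 0.05.

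Redox partners and alternative enzymes of the lanosterol to cholesterol steps formed a list of 10, of which 9 were found. In PCN against vehicle livers 5 were higher and none lower in the authors' deposited table: Erg28, Pgrmc1, Cyb5a, Cyb5b and Cyb5r3. Erg28, named after a yeast scaffold of the carbon 4 demethylation enzymes, averaged 1478 ± 315 normalized counts in PCN and 738 ± 147 in vehicle livers. Cyb5a, the cytochrome b5 that passes electrons to Sc5d and Msmo1, was 1.89-fold higher. Against HFD 6 were higher and none lower, among them Lbr (1.65-fold). Por, the reductase that supplies electrons to P450 enzymes such as Cyp51, was also called there, but averaged 20283 ± 4259 normalized counts in PCN, 19004 ± 3213 in vehicle, 10799 ± 2247 in HFD and 11114 ± 1237 in chow livers. It was not listed between PCN and vehicle, and was higher in vehicle than in HFD livers in the authors' deposited table (adjusted p 0.0259). Against chow 6 were higher and none lower. The shares called among all genes with enough counts were 3.11% against vehicle, 5.67% against HFD and 14.2% against chow. By edgeR 0 of the 5 calls against vehicle (adjusted p 0.199 to 0.712), 0 of the 6 against HFD (adjusted p 0.0714 to 0.571) and 1 of the 6 against chow passed, the last being Erg28. Cyb5r3, the reductase of cytochrome b5, averaged 5706 ± 1145 normalized counts in PCN, 3626 ± 270.5 in vehicle, 5845 ± 296 in HFD and 5398 ± 758 in chow livers, so its call with PCN stood against low vehicle livers. In the authors' deposited tables Cyb5r3 was lower in vehicle livers than in HFD and in chow livers (adjusted p 0.000532 and 0.0132), while edgeR called none of the 9 between vehicle and HFD. Por was higher in vehicle than in chow livers, and Ebpl, a relative of Ebp, higher in HFD than in chow livers, in the authors' deposited tables. Neither call passed by edgeR (adjusted p 0.177 for Por and 0.101 for Ebpl), nor did that of Cyb5r3 in vehicle against chow (0.247).

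Of 10 genes that sense sterols or take them up, 1 was higher in PCN than in vehicle livers in the authors' deposited table, Stard4, a carrier of cholesterol between membranes (1.67-fold). Against HFD 4 were higher and none lower, Insig1, Stard4 and Srebf2 among them. Srebf2, the gene of SREBP-2, averaged 1328 ± 176 normalized counts in PCN, 1217 ± 482 in vehicle, 777 ± 62 in HFD and 844 ± 64.1 in chow livers, and was not listed between PCN and vehicle. Against chow 5 were higher and 3 were lower, Insig2, Mylip and Mbtps2. Insig2, which retains SREBP in the endoplasmic reticulum as Insig1 does, averaged 3207 ± 1179.6 normalized counts in PCN, 2767 ± 1231 in vehicle, 5223 ± 698 in HFD and 7219 ± 1771 in chow livers, and was also lower in vehicle than in chow livers. Of all genes with enough counts, 3.11% were called for PCN against vehicle, 5.67% against HFD and 14.2% against chow. By edgeR 0 of 1 calls against vehicle, 1 of 4 against HFD (Stard4) and 3 of 8 against chow passed.

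**Figure D4:**
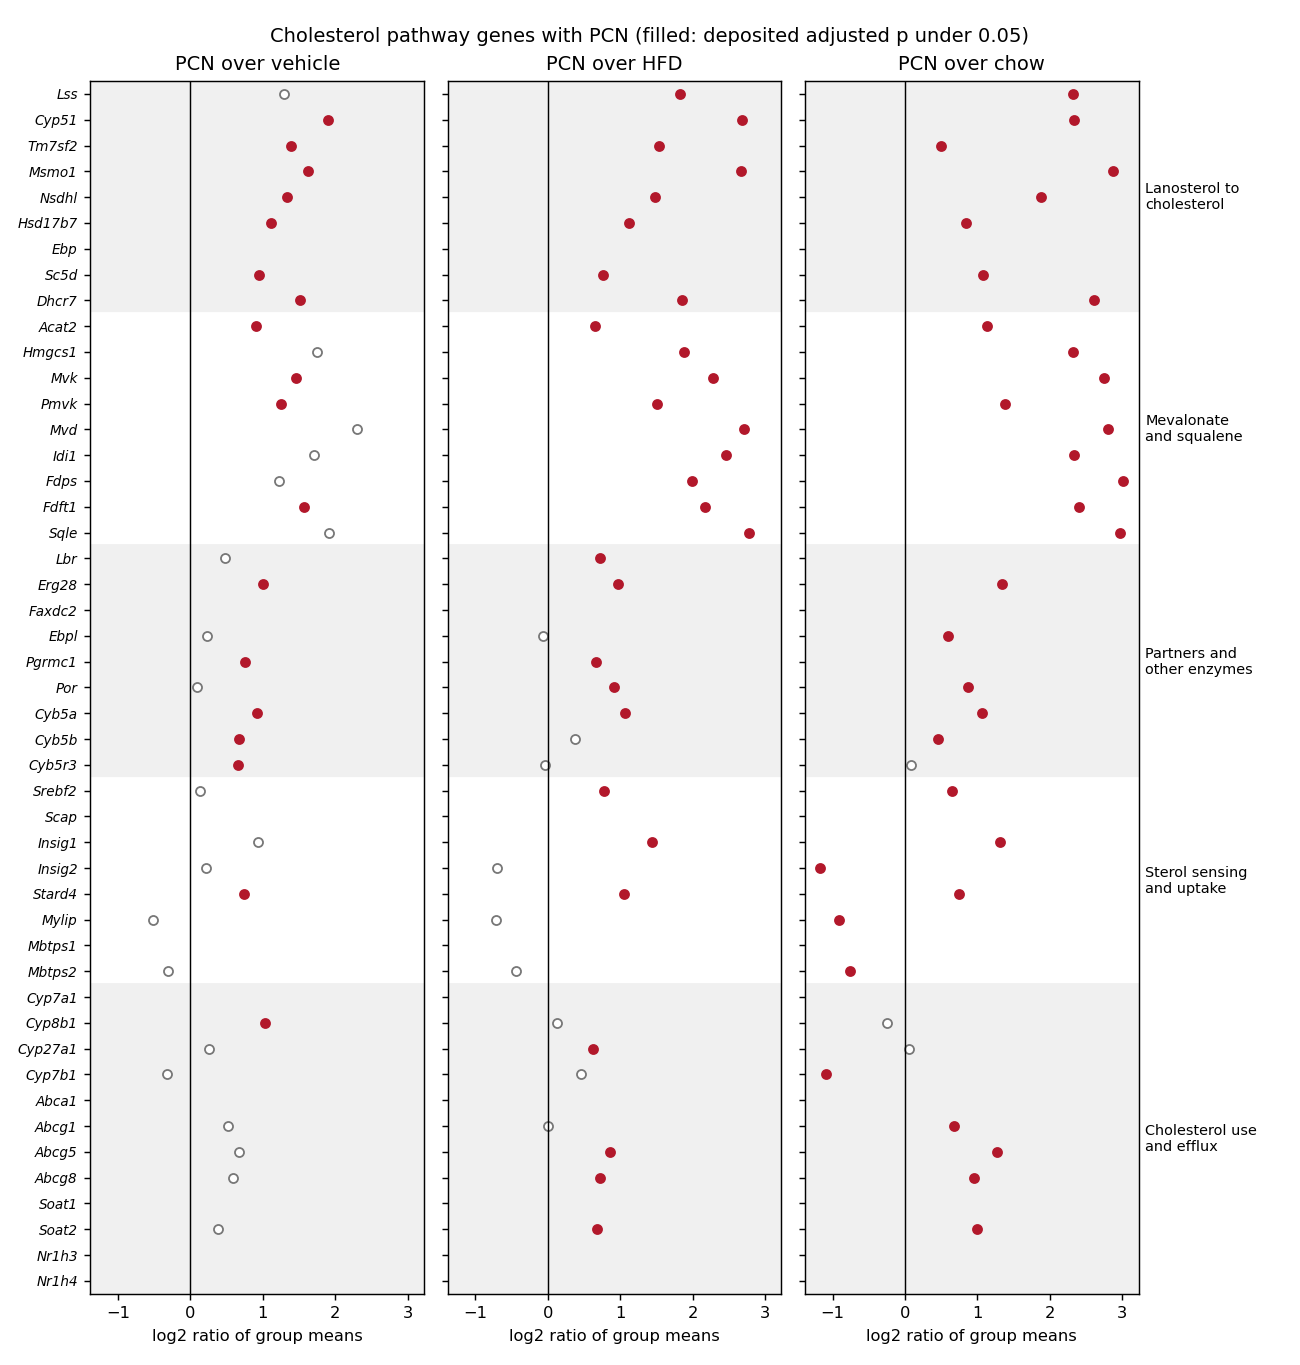
Log2 ratios of group means (horizontal axes) of PCN over vehicle, over HFD and over chow livers for the lanosterol to cholesterol enzymes and 4 other lists of cholesterol genes (rows). Filled points have an adjusted p under 0.05 in the authors' deposited tables, open points were not listed there, and rows without a point had no counts for that pair of groups. Some genes of the lists are not shown. All filled points of the first 3 blocks lie right of 0.

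Genes whose levels over the 12 libraries were most like those of the enzymes were sought among the 1956 genes with counts in all libraries and a mean of at least 50 normalized counts. The measure was the root mean square difference between a gene's centred log2 profile and the mean profile of the 8 enzymes. Nsdhl lay nearest to that mean (0.14), and Tm7sf2 farthest of the enzymes (0.63, rank 325). The 5 nearest genes outside the set included Acsl3 (0.19), Insig1 (0.22), Pmvk (0.24) and Mmab (0.25). These genes were picked by a profile over the same libraries that is high with PCN, so their PCN folds and calls follow from the choice. Acsl3, an acyl-CoA synthetase, was 2.9-fold higher in PCN than in HFD livers and 3.07-fold higher than in chow livers. Mmab, an enzyme of cobalamin metabolism, was 2.38-fold and 3.44-fold higher in those comparisons. Both were listed as called there in the authors' deposited tables, and neither for PCN against vehicle. By edgeR both passed against chow and neither against HFD.

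Markers of liver cell types moved in some of these comparisons and not in others. Between PCN and vehicle livers none of the 7 hepatocyte markers found and none of the markers of 6 other cell types was called in the authors' deposited table. Against chow 5 hepatocyte markers were lower in PCN livers (Alb, Apob, Ttr, Cps1 and Hnf4a), and against HFD 1 was (Ttr). Apoa1 and Hnf4a were lower in HFD than in chow livers. The 5 hepatocyte markers with counts everywhere summed to between 903037 and 1401818 normalized counts in PCN, 1278447 and 2037144 in vehicle, 1515111 and 2090123 in HFD, and 2147890 and 2409048 in chow livers. Of 9 stellate cell markers, 4 were higher in PCN than in chow livers, 2 were lower in PCN than in HFD livers and 4 were higher in HFD than in chow livers. Of 10 macrophage markers, 1 was higher in PCN than in chow livers and 5 were higher in HFD than in chow livers. Of the endothelial markers, Lyve1 was lower in PCN than in HFD livers, Lyve1 and Cdh5 were lower in vehicle than in HFD livers, and Lyve1 was higher and Kdr lower in HFD than in chow livers. Of the cholangiocyte markers, Krt19 was higher and Sox9 lower in PCN than in chow livers, and Spp1 was higher in vehicle and in HFD than in chow livers. All these marker calls are those of the authors' deposited tables. Of all genes with enough counts, 3.11% were called for PCN against vehicle, 5.67% against HFD and 14.2% against chow. The shares were 1.5% for vehicle against HFD, 5.67% for vehicle against chow and 8.8% for HFD against chow. Some of the marker counts are near these shares. The part of such shifts in the differences of the enzymes was not tested.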

How the data were processed

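Illumina libraries were made from DNase-treated total liver RNA, per the labels. Per the submitters' processing notes, HISAT2, HTSeq, DESeq2 and GRCm38/mm10 were used; their versions, and whether counting used strand, are not given in the sources used here. Deposited by the authors were 6 pairwise tables with raw read counts per gene for 6 libraries each, normalized means, DESeq2's log2 fold changes, test scores, p-values and adjusted p-values, per the file headers. The fold changes were taken to be moderated toward 0 from their values, which the headers do not state. Counts shared between tables were identical (15768 values compared, 0 differed). The deposited means and the counts gave each library's size factor, brought to 1 scale (tables differed by at most 0.52%). Gene starts were raised by 1, after which 95.6% of shared identifiers matched GENCODE M21.

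The vehicle and HFD counts were tested with edgeR 4.0.16 (quasi-likelihood, filterByExpr, TMM, Benjamini-Hochberg over 13775 genes). For the other 5 comparisons the deposited adjusted p (threshold 0.05) was the test, and edgeR on the listed genes, with those size factors, the prior for dispersions taken from the complete table, and adjustment over the number of genes tested (25101 to 25882, estimated from the deposited p-values), was the alternative. DESeq2 1.42.0 was refitted to the complete table. The edgeR steps were tested on simulated data. Each library was left out in turn. All tests were two-sided. The 9 enzymes and the lists were chosen with earlier results of these data known. From each list at most 4 called genes per comparison, largest fold first, were to be named; some others are named as examples, chosen after their values were seen. Some genes of the lists are counted but not reported here by name. The log2 profiles use a pseudocount of 1. Promoter windows are from RefSeq (R 4.3.3, Python 3.11.15). Counting intervals are not given, and the depth of PCN and chow libraries is known only through size factors.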

Additional observations from a re-analysis of the deposited data

How the results depend on the processing

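Over 392 recomputed folds of the enzymes (other size factors, geometric means, or 1 library left out), 0 of 216 called values changed sign. None of the called values moved over 1.5 times (largest 1.48). Where groups do not overlap, geometric means or leaving out 1 library cannot change the sign. That was so for every called fold except that of Dhcr7 in vehicle over chow, so the lack of sign changes says little. Of folds not called, those of Lss moved 1.64 times without vehicle 55, to 4.01 for PCN over vehicle, 0.881 for vehicle over HFD and 1.25 for vehicle over chow. The fold of Sc5d over chow moved by more than its spread with size factors from genes counted in all 12 libraries, to a log2 ratio of 0.91. Those factors lower log2 ratios by 0.1 for PCN over vehicle and 0.16 for PCN over chow. The number of enzymes called did depend on the test. Deposited calls could not be recomputed without single libraries. Of 7 against vehicle, 8 against HFD and 8 against chow, edgeR on the listed genes called 1, 4 and 6, and 0, 4 and 6 with TMM factors. Leaving out 1 library gave 0 to 1 against vehicle, 0 to 6 against HFD and 4 to 7 against chow. For vehicle against chow and HFD against chow edgeR called 1 each (1 with TMM), against 2 deposited, and 0 in every fit without 1 library. For vehicle against HFD no enzyme was called by edgeR (1 gene called in all), by edgeR without 1 library (0 to 9 genes), by edgeR without the filter on low counts (283 genes), by a DESeq2 refit (268 genes) or in the authors' deposited table (206 genes); the cause of these unequal totals was not tested. No paired analysis was possible because the replicate numbers differ between groups.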

Other observations

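Genes that use or export cholesterol were called in both directions. Of 12 such genes, 1 was higher in PCN than in vehicle livers in the authors' deposited table, Cyp8b1, the sterol hydroxylase that directs bile acid synthesis toward cholic acid. Cyp8b1 averaged 8531 ± 2023 normalized counts in PCN, 4187 ± 321 in vehicle, 7786 ± 566 in HFD and 10181 ± 2089.6 in chow livers (SD, n = 3 each), lowest in the vehicle group. It was lower in vehicle than in HFD livers (adjusted p 1.97e-06) and than in chow livers (adjusted p 1.56e-09) in the authors' deposited tables, while edgeR called none of the 12 between vehicle and HFD. Against HFD 4 were higher with PCN and none lower: Abcg5 and Abcg8, which form the canalicular exporter of sterols, Cyp27a1, which starts the alternative route to bile acids, and Soat2, which esterifies cholesterol. Abcg5 averaged 2789 ± 349 normalized counts in PCN and 1543 ± 204 in HFD livers, and Soat2 801 ± 21.8 and 498 ± 68.9. Against chow 4 were higher (Abcg1, Abcg5, Abcg8 and Soat2) and 1 was lower, Cyp7b1, a hydroxylase of the alternative bile acid route, with 1644 ± 176 in PCN, 2049.8 ± 758 in vehicle, 1194 ± 746 in HFD and 3500.0 ± 1139.8 in chow livers. Of all genes with enough counts, 3.11% were called for PCN against vehicle, 5.67% against HFD and 14.2% against chow. By edgeR 0 of 1 calls against vehicle, 0 of 4 against HFD and 3 of 5 against chow (Abcg5, Abcg8 and Soat2) passed. Cyp27a1 was lower in HFD than in chow livers. Of the 12 genes, Cyp7a1, Abca1, Soat1, Nr1h3 and Nr1h4 had no PCN or chow counts at hand.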
